A study of Homo sapiens with 18 samples.

Results

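A set of 10 genes of plasma membrane amino acid transport was followed through RNA-Seq of C4-2B cells: SLC7A11, SLC7A5, SLC3A2, SLC1A5, SLC1A4, SLC38A1, SLC38A2, SLC7A1, SLC7A3 and SLC6A9. They were chosen by name, with earlier results of these data known, out of the 26473 genes listed in the FPKM tables. C4-2B is an established human prostate cancer cell line that expresses the androgen receptor and grows without androgen. All cells were labelled wild type. VIC-1911 is an inhibitor of the mitotic kinase AURKA, and olaparib blocks PARP, an enzyme of DNA repair. The study asked how the 2 drugs, alone and together, change gene expression. The 18 libraries formed 6 groups of 3: DMSO vehicle and 0.1 μM VIC-1911 after 2 days, and DMSO vehicle, 0.1 μM VIC-1911, 1 μM olaparib and the combination of both after 7 days.

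Amino acid transporters move amino acids across the cell membrane, either by exchange of one amino acid for another or by uptake coupled to ions or membrane voltage. SLC7A11 and SLC7A5 are light chains that reach the cell surface bound to the heavy chain SLC3A2, and the pairs exchange cystine for glutamate and large neutral amino acids for glutamine, respectively. Several of these genes are textbook targets of the transcription factor ATF4, which cells make more of when amino acids are short or the endoplasmic reticulum is stressed. Imported cystine feeds glutathione, and imported leucine and arginine feed the growth kinase mTORC1.

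One sequence that ATF4 binds together with a C/EBP partner, the CARE motif, is shown here because ATF4 and its targets appear in the results that follow. The motif was searched for as TGATGNAA on both strands, in RefSeq promoter windows of 300 bases, most of them upstream of each start site (GRCh38.p14). Entries existed for 8 of the 10 genes, in 14 windows. SLC7A11 and SLC7A3 had no entry and were not searched. The motif was found in 5 of these 14 windows, each of a different gene, and in 3.62% of all 35116 windows. The windows of SLC6A9, SLC38A2 and SLC7A5 held no match. SLC1A4, SLC3A2, SLC38A1 and SLC1A5 also had further windows, at other start sites, that held none. The matches of SLC3A2 and SLC7A1 began at bases 38 and 8 downstream of the start site. The stretches are printed 5′ to 3′ along the gene, with the motif or its reverse complement in capitals.
SLC1A4, chr2:64989382-64989409, plus strand: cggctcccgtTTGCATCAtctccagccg
SLC3A2, chr11:62881726-62881748, plus strand: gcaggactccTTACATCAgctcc
SLC38A1, chr12:46266503-46266530, minus strand: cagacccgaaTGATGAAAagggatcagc
SLC7A1, chr13:29595664-29595691, minus strand: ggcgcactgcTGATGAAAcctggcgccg
SLC1A5, chr19:46784894-46784921, minus strand: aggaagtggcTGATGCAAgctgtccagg
A match of this kind describes the letters of the window and is not a measured binding site. The letters TGACNNNGC, which resemble the antioxidant response element, were found in 4 of the 14 windows (SLC3A2, SLC7A1, SLC7A5 and SLC1A5), against 13.3% of all windows. The E-box CACGTG was found in 2 of the 14 windows (SLC7A5 and SLC1A5), against 7.26% of all windows. No matches of different motifs overlapped in these windows.

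The libraries held between 3245273 and 7184420 counts after 2 days and between 4967931 and 19684208 after 7 days. All 9 luminal prostate markers were present in every group, KLK3 being the highest at mean levels of 1313 to 2681 FPKM. Of 5 immune markers, 4 had a mean under 0.1 FPKM in every group, and the fibroblast and endothelial sums stayed at or below 2.63 and 0.754 FPKM. The fifth, CD68, a lysosomal protein, stood at means of 6.40 FPKM in the vehicle of 7 days and of 7.67, 9.01 and 9.76 FPKM under VIC-1911, olaparib and the combination. The immune sum ranged from 6.11 to 6.96 FPKM in the vehicle libraries of 7 days and from 7.53 to 10.2 FPKM in the treated ones. The luminal marker sum was lower in the 9 drug-treated libraries of 7 days (2899 to 3306 FPKM) than in the 3 vehicle libraries (4388 to 4425 FPKM), and the part of these marker differences in the transporter results was not tested. In bulk RNA, a change in each cell and a change in the share of cells that express a gene cannot be told apart. By the library numbers in the labels, vehicle and VIC-1911 of 7 days form one run of numbers, and olaparib and the combination another. The labels do not say whether these were separate batches. The run of numbers and olaparib cannot be told apart, also where olaparib or the combination is compared with vehicle. The comparisons of VIC-1911 with vehicle and of the combination with olaparib each lie within one run. Nothing in the labels says that replicates were separate cultures, so p-values measure the spread between these libraries.

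Transcripts of the tested transporters were lower in every drug treatment than in the vehicle of the same day. After 2 days of VIC-1911, 4 of the 9 genes with enough counts were called lower (SLC7A11, SLC1A5, SLC1A4 and SLC6A9), where a call needs an adjusted p under 0.05 and a fold of at least 1.5. The same call was made for 1.33% of all 12241 genes tested. After 7 days, with a fold limit of 2, 8 of 9 were called lower under VIC-1911 (3.43% of all 14409 genes), 9 of 9 under olaparib (3.53%) and 9 of 9 under the combination (4% of all genes). None was called higher, against 0.825%, 3.46%, 3.63% and 4.55% of all genes in these 4 comparisons. By the adjusted p alone, all 9 genes were lower in each, against 7.19%, 25.7%, 25.9% and 28% of all genes, and none was higher, against 7.5%, 26.7%, 28.1% and 28.6%. The 2-day count of 9 includes SLC38A1 at an adjusted p of 0.036, and it was 8 with DESeq2, 7 to 8 with limma, and 8 without vehicle replicate 1, vehicle replicate 3, VIC-1911 replicate 1 or VIC-1911 replicate 2. The median log2 fold change of the 9 genes was -0.57 after 2 days, and -2.01, -2.25 and -2.32 under VIC-1911, olaparib and the combination after 7 days, where the medians over all genes lay between -0.0052 and 0.010. For each of the 9 genes, every treated library lay below every vehicle library of its time point. Such separation was found for 18.4%, 25.4%, 26.9% and 29.1% of all genes. The 3 comparisons of 7 days share the same vehicle libraries. SLC7A3, a cationic amino acid transporter best known from brain, was listed at 0 in 17 libraries and had 1 count in the combination (replicate 3), and it was not tested.

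**Figure D1:**
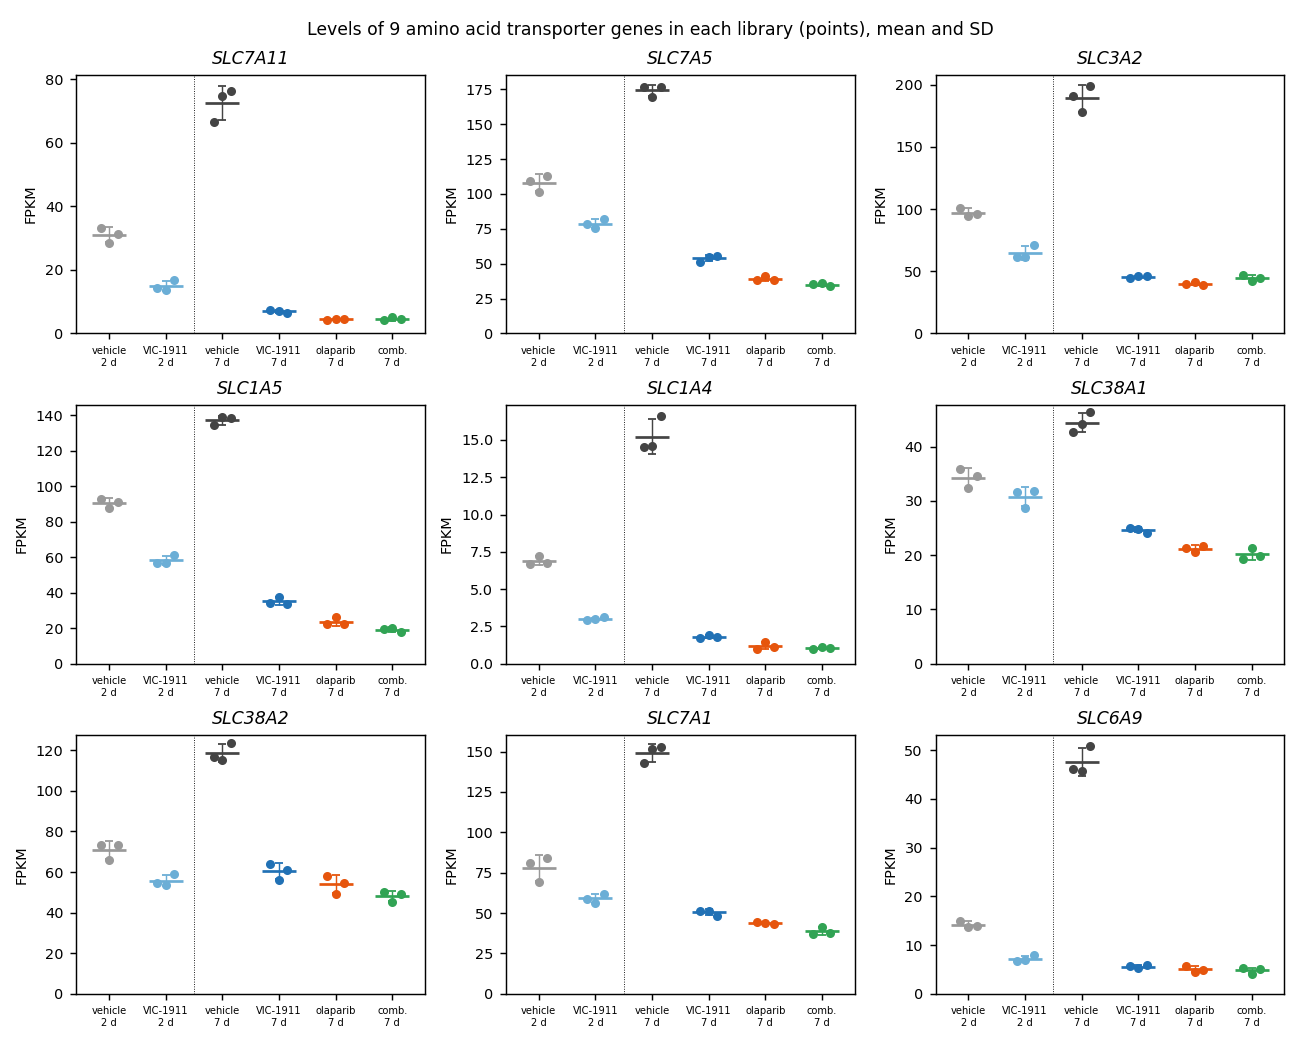
FPKM (linear axes from 0) of the 9 tested transporter genes in each of the 18 libraries; points are libraries, horizontal bars group means and error bars the SD of 3 libraries, with a dotted line between the 2-day and 7-day tables, which were made separately. In every panel the treated points lie below all vehicle points of the same day, as for SLC7A11, at 66.5 to 76.3 FPKM in vehicle and at most 7.29 FPKM under any drug after 7 days.

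SLC7A11 (chr4:138164097-138242349, minus strand), the cystine-importing light chain, had the lowest log2 fold change of the 9 genes against vehicle in each treatment of 7 days, though in the combination its 95% interval (-4.15 to -3.88) overlapped that of SLC1A4 (-4.03 to -3.66). After 2 days it stood at 33.2, 28.5 and 31.4 FPKM in the vehicle libraries and at 14.2, 13.8 and 16.8 FPKM under VIC-1911. After 7 days it stood at 66.5, 74.7 and 76.3 FPKM in vehicle and at 7.29, 7.19 and 6.40 FPKM under VIC-1911. The olaparib libraries held 4.24, 4.55 and 4.42 FPKM, and the combination libraries 4.09, 5.04 and 4.45 FPKM. The treated libraries of 7 days thus kept 9.60% (VIC-1911), 6.07% (olaparib) and 6.25% (combination) of the mean vehicle level, against 48.1% after 2 days. The log2 fold change was -1.05 ± 0.060 (SE, n = 3 against 3; edgeR adjusted p = 3.0e-16) after 2 days. After 7 days it was -3.43 ± 0.064 under VIC-1911 (adjusted p = 1.46e-26), -4.05 ± 0.068 under olaparib (5.86e-28) and -4.01 ± 0.066 under the combination (3.18e-28). SLC7A11 overlaps the antisense gene SLC7A11-AS1 over 14081 bases, and whether counting used strand is not given in the sources used here. The antisense gene had at most 83 counts in a library of 7 days, where SLC7A11 had up to 16349, and its mean was 0.614 FPKM in vehicle and 0.0298 to 0.0482 FPKM in the treated groups.

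SLC3A2 (chr11:62856109-62888860, plus strand), the heavy chain shared by both light chains, was the member with the highest mean level in the vehicle cells of 7 days. Its levels there were 191, 178 and 199 FPKM, and under VIC-1911 they were 44.7, 45.9 and 46.4 FPKM. Olaparib libraries held 39.8, 41.7 and 39.0 FPKM, and combination libraries 47.0, 42.4 and 44.4 FPKM. The 3 treatments lay close together, and all stood far below vehicle. The log2 fold changes were -2.10 ± 0.048, -2.25 ± 0.049 and -2.09 ± 0.048 for VIC-1911, olaparib and the combination (SE; edgeR adjusted p = 1.28e-24, 2.47e-25 and 8.01e-25). After 2 days its levels were 101, 94.4 and 96.0 FPKM in vehicle and 61.6, 61.5 and 71.3 FPKM under VIC-1911. This 2-day change of -0.57 ± 0.052 passed the test (adjusted p = 1.13e-10) but just missed the fold limit, and it passed that limit without VIC-1911 replicate 3 (log2 fold change -0.64).

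SLC7A5 (chr16:87830023-87869507, minus strand), the LAT1 light chain for leucine and other large neutral amino acids, fell less than SLC7A11. It stood at 177, 170 and 177 FPKM in the vehicle libraries of 7 days. Under VIC-1911 it stood at 51.5, 55.1 and 55.5 FPKM, under olaparib at 38.1, 41.1 and 38.3 FPKM, and under the combination at 35.3, 36.2 and 33.7 FPKM. The 3 treatments formed a descending series without overlap between groups. Olaparib lay wholly below VIC-1911 in 7 of the 9 tested genes (24.1% of all genes). The combination lay wholly below olaparib in 3 of the 9 (16.2%) and wholly above it in 1 (11.1%). The SLC7A5 log2 fold changes against vehicle were -1.73 ± 0.044, -2.17 ± 0.045 and -2.32 ± 0.045 (SE; edgeR adjusted p = 1.36e-23, 7.65e-26 and 1.15e-26). After 2 days the vehicle libraries ranged from 101 to 113 FPKM and the VIC-1911 libraries from 75.6 to 82.0 FPKM, a change of -0.44 ± 0.046 (adjusted p = 2.30e-09). Reads of SLC7A5 may be shared with the near copies SLC7A5P1 and SLC7A5P2, whose means in the 7-day groups were 2.63 to 4.24 and 2.87 to 3.76 FPKM.

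The make-up of the heavy and light chain transcripts also differed between groups. The FPKM ratio of SLC7A11 to SLC3A2 was 0.384 ± 0.036 in the vehicle of 7 days (SD, n = 3), 0.153 ± 0.013 under VIC-1911, 0.110 ± 0.0035 under olaparib and 0.102 ± 0.016 under the combination. The ratio of SLC7A5 to SLC3A2 was 0.922 ± 0.034 in vehicle, 1.18 ± 0.027 under VIC-1911, 0.976 ± 0.016 under olaparib and 0.788 ± 0.058 under the combination. The SLC7A11 ratio was thus lower in all treated libraries, whereas the SLC7A5 ratio was above vehicle under both single drugs and below it under the combination. With 3 libraries a side, an exact permutation test of a single ratio cannot pass 0.05, so these ratios are given without a test.

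The 2 neutral amino acid exchangers of the SLC1 family both fell, from very different levels. SLC1A5 (chr19:46774883-46788594, minus strand), or ASCT2, carries glutamine, and stood at 134, 139 and 139 FPKM in the vehicle libraries of 7 days. It stood at 34.1, 37.8 and 33.6 FPKM under VIC-1911, at 22.1, 26.3 and 22.4 FPKM under olaparib and at 19.7, 20.1 and 17.7 FPKM under the combination. These levels step down without overlap from vehicle to VIC-1911 to olaparib to the combination (steps seen in 25.4%, 24.1% and 16.2% of all genes). The log2 fold changes were -2.01 ± 0.056, -2.55 ± 0.059 and -2.85 ± 0.059 (SE; edgeR adjusted p = 1.59e-22, 9.31e-25 and 6.73e-26), and -0.61 ± 0.049 after 2 days of VIC-1911 (adjusted p = 2.91e-12). In the 2-day libraries SLC1A5 ranged from 87.7 to 93.1 FPKM in vehicle and from 56.7 to 61.2 FPKM under VIC-1911.

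SLC1A4 (chr2:64988479-65023865, plus strand), or ASCT1, which carries alanine, serine and cysteine, was the least abundant of the 9 genes in every group. Its levels in the vehicle libraries of 7 days were 14.5, 14.6 and 16.6 FPKM, and 1.72, 1.94 and 1.79 FPKM under VIC-1911. They were 0.991, 1.46 and 1.14 FPKM under olaparib and 1.01, 1.11 and 1.06 FPKM under the combination. The olaparib and combination libraries overlapped, and both lay below VIC-1911 (24.1% and 29.8% of all genes). The SLC1A4 values rest on 31 to 171 counts per treated library, against 699 to 1582 in vehicle. The log2 fold changes were -3.10 ± 0.086, -3.62 ± 0.092 and -3.84 ± 0.092 (SE; edgeR adjusted p = 1.59e-22, 1.26e-23 and 2.03e-24). After 2 days the levels were 6.68, 7.25 and 6.75 FPKM in vehicle and 2.95, 2.99 and 3.10 FPKM under VIC-1911, a change of -1.09 ± 0.10 (adjusted p = 1.84e-10).

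SLC6A9 (chr1:43996483-44031462, minus strand), the glycine transporter GlyT1, stood at 46.1, 45.6 and 50.8 FPKM in the vehicle libraries of 7 days. It stood at 5.65, 5.19 and 5.86 FPKM under VIC-1911, at 5.62, 4.47 and 4.98 FPKM under olaparib and at 5.21, 4.15 and 5.01 FPKM under the combination. The 3 treatments overlapped, at between 10.1% and 11.7% of the mean vehicle level. The log2 fold changes were -3.13 ± 0.072, -3.29 ± 0.074 and -3.29 ± 0.072 (SE; edgeR adjusted p = 1.28e-24, 5.19e-25 and 2.25e-25). After 2 days the vehicle libraries held 14.98, 13.8 and 13.8 FPKM and the VIC-1911 libraries 6.81, 6.97 and 7.95 FPKM, a change of -0.99 ± 0.081 (adjusted p = 8.20e-12). SLC6A9 shares 46 bases with CCDC24 on the other strand.

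SLC7A1 (chr13:29509414-29595688, minus strand), or CAT1, is a carrier of arginine and lysine. It ranged from 143 to 153 FPKM in the vehicle libraries of 7 days, from 48.5 to 51.6 FPKM under VIC-1911, from 43.5 to 44.3 FPKM under olaparib and from 37.1 to 41.4 FPKM under the combination. The groups did not overlap (24.1% of all genes for olaparib below VIC-1911, 16.2% for the combination below olaparib). The log2 fold changes were -1.61 ± 0.046, -1.78 ± 0.046 and -1.95 ± 0.046 (SE; edgeR adjusted p = 2.59e-22, 2.20e-23 and 2.00e-24). After 2 days the change was -0.40 ± 0.052 (adjusted p = 4.71e-07), from 68.9 to 84.2 FPKM in vehicle to 56.4 to 62.0 FPKM under VIC-1911.

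The sodium-coupled carriers SLC38A1 (chr12:46183063-46269043) and SLC38A2 (chr12:46358188-46372773), which take up glutamine and other small neutral amino acids, lie on the minus strand of chromosome 12 and changed least. SLC38A2 ranged from 115 to 124 FPKM in the vehicle libraries of 7 days and from 45.2 to 64.1 FPKM over the 9 treated libraries. Its log2 fold changes were -1.02 ± 0.055, -1.16 ± 0.056 and -1.30 ± 0.055 (SE; edgeR adjusted p = 1.68e-15, 8.61e-17 and 3.07e-18). The first of these sits at the fold limit, and the call was lost without vehicle replicate 3 (-0.997) or without VIC-1911 replicate 2 (-0.97), the adjusted p staying at or below 4.13e-13. SLC38A1 ranged from 42.8 to 46.3 FPKM in vehicle and from 19.3 to 25.1 FPKM in the treated libraries. Its log2 fold change of -0.89 ± 0.046 under VIC-1911 passed the test (adjusted p = 5.04e-16) but not the fold limit, which it passed under olaparib (-1.09 ± 0.046) and the combination (-1.14 ± 0.046). After 2 days the changes were -0.34 ± 0.051 for SLC38A2 (adjusted p = 8.41e-06) and -0.15 ± 0.049 for SLC38A1 (adjusted p = 0.036). The SLC38A1 change did not pass with DESeq2 (adjusted p = 0.0898) or limma (0.134 to 0.211), nor without vehicle replicate 1 (0.142), vehicle replicate 3 (0.130), VIC-1911 replicate 1 (0.0546) or VIC-1911 replicate 2 (0.258).

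**Figure D2:**
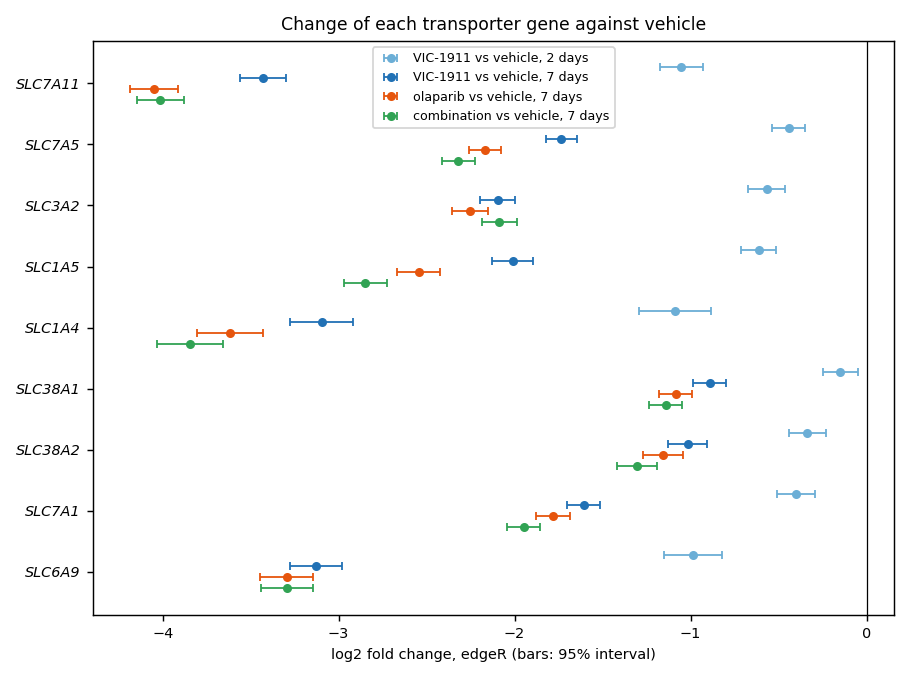
Log2 fold change against the vehicle of the same day (horizontal axis) for the 9 tested genes (rows), for VIC-1911 after 2 days and for VIC-1911, olaparib and the combination after 7 days; points are edgeR estimates and bars 95% intervals. All intervals lie below 0, and the 7-day values run from -0.89 for SLC38A1 under VIC-1911 to -4.05 for SLC7A11 under olaparib.

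The genes fell by very unequal amounts, and the order was alike after 2 and 7 days. SLC7A11, SLC1A4 and SLC6A9 had the 3 largest falls in every comparison with vehicle. SLC38A2 and SLC38A1 had the 2 smallest in each, and SLC3A2, SLC1A5, SLC7A5 and SLC7A1 lay between. Within the first group the 95% intervals of SLC1A4, SLC7A11 and SLC6A9 overlapped after 2 days, and under VIC-1911 after 7 days only the interval of SLC7A11 stood clear of the others. Between the 2-day and 7-day changes under VIC-1911, Spearman's rho was 0.933 and Pearson's r was 0.981 over the 9 genes. The 2 times have separate libraries but the same cell line and drug, and genes are not independent replicates.

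**Figure D3:**
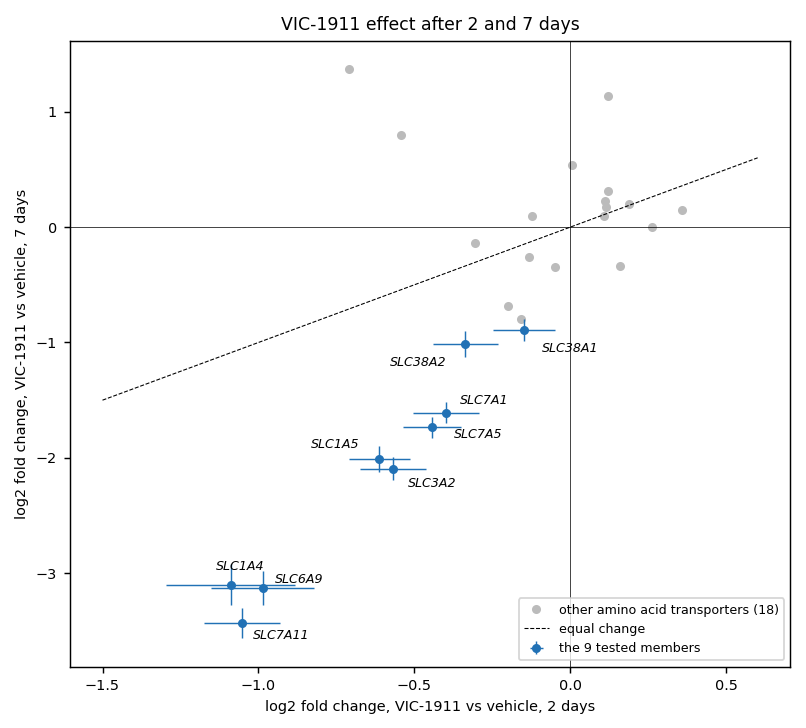
Log2 fold change of VIC-1911 against vehicle after 2 days (horizontal) and after 7 days (vertical); blue points with 95% intervals are the 9 tested genes, grey points 18 other amino acid transporters, and the dashed line marks equal change. The 9 genes lie below the dashed line, with SLC7A11, SLC1A4 and SLC6A9 at the lower left.

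The effect of VIC-1911 was larger after 7 days than after 2 for all 9 genes, by a time-by-drug term. The term was negative past the test in 14.2% of all 13832 genes and positive in 14.6%. It ranged from -0.70 ± 0.072 for SLC38A2 to -2.39 ± 0.089 for SLC7A11 on the log2 scale (SE; edgeR adjusted p = 7.22e-11 and 1.71e-25). The vehicle means themselves were higher after 7 days than after 2 for all 9 genes. They were 31.045 and 72.5 FPKM for SLC7A11 and 14.2 and 47.5 FPKM for SLC6A9 after 2 and 7 days. For SLC3A2 they were 97.2 and 189 FPKM, and for SLC38A2 70.8 and 119 FPKM. Under VIC-1911 the means after 2 and 7 days were 14.9 and 6.96 FPKM for SLC7A11 and 7.24 and 5.57 FPKM for SLC6A9. For SLC3A2 they were 64.8 and 45.7 FPKM. For SLC38A2 they were 55.8 and 60.5 FPKM, so that its VIC-1911 mean was not lower after 7 days. The tables of the 2 days were made separately, so these levels are set side by side without a test, and the day and the table cannot be told apart.

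The drugs did not add up on the log2 scale. For each of the 9 genes the interaction term (the combination less olaparib less VIC-1911 plus vehicle) was positive, from 0.83 ± 0.065 for SLC38A1 to 3.47 ± 0.096 for SLC7A11 (SE; edgeR adjusted p = 1.28e-11 and 5.60e-22). Past the test, the term was positive in 21% and negative in 22.9% of all genes. For SLC7A11 the 2 single-drug changes sum to -7.48, whereas the combination stood at -4.01. For SLC7A5 the sum was -3.90 and the combination -2.32, and for SLC38A1 the sum was -1.98 and the combination -1.14.

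Set against olaparib alone, the combination changed the transporters little. None of the 9 genes was called by edgeR or by DESeq2 (edgeR called 0.0902% of all genes lower and 0.291% higher), and 5 had an unadjusted p under 0.05. By adjusted p alone, SLC1A5, SLC7A1 and SLC7A5 were lower (6.95% of all genes) and SLC3A2 was higher (4.55% of all genes). The log2 differences were -0.30 ± 0.062 for SLC1A5 (adjusted p = 0.00128), -0.17 ± 0.046 for SLC7A1 (0.0166), -0.15 ± 0.045 for SLC7A5 (0.0281) and 0.17 ± 0.050 for SLC3A2 (0.0253; SE, edgeR). The number past the test fell from 4 to 2 without olaparib replicate 1, and to 1 without olaparib replicate 3, combination replicate 1 or combination replicate 3, and it was 0 with limma on FPKM values of all genes and 3 with limma on genes that averaged 1 FPKM or more. For SLC7A11 the difference was 0.04 with a 95% interval from -0.11 to 0.18, and for SLC6A9 it was 0.0018 with an interval from -0.18 to 0.18. The SLC1A4 difference of -0.23 had an interval from -0.49 to 0.04, that of SLC38A1 one from -0.15 to 0.04, and that of SLC38A2 one from -0.26 to -0.03 (adjusted p = 0.0945).

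Against VIC-1911 alone, both olaparib and the combination held lower transporter levels. In the combination 7 of 9 genes were lower past the test (22.2% of all genes) and none higher (20.7%). None was called at the fold limit of 2 by edgeR or DESeq2 (1.82% of all genes lower, 2.23% higher), 7 having an unadjusted p under 0.05. The largest of these log2 differences were -0.84 ± 0.060 for SLC1A5, -0.75 ± 0.12 for SLC1A4, -0.58 ± 0.044 for SLC7A5 and -0.58 ± 0.069 for SLC7A11 (SE; edgeR adjusted p = 2.49e-12, 1.11e-05, 8.40e-12 and 6.15e-08). SLC3A2 differed by 0.0087 (95% interval -0.09 to 0.11) and SLC6A9 by -0.16 (-0.34 to 0.01). Under olaparib 7 of 9 genes were also lower than under VIC-1911 past the test (12.3% of all genes) and none higher (11.1%). None was called by edgeR or DESeq2 (0.555% of all genes lower, 0.895% higher), 8 having an unadjusted p under 0.05. Here SLC7A11 differed by -0.62 ± 0.071, SLC1A5 by -0.53 ± 0.060, SLC1A4 by -0.52 ± 0.12 and SLC7A5 by -0.44 ± 0.045 (SE; edgeR adjusted p = 1.18e-07, 8.65e-08, 0.00191 and 1.70e-08). SLC38A2 and SLC6A9 did not pass, at -0.14 (-0.25 to -0.03) and -0.17 (-0.35 to 0.02). SLC3A2, at -0.16 ± 0.050 (adjusted p = 0.0206), no longer passed without VIC-1911 replicate 2, VIC-1911 replicate 3 or olaparib replicate 3, the adjusted p then being 0.0614, 0.0725 and 0.122. These 2 comparisons cross the 2 runs of library numbers.

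**Figure D4:**
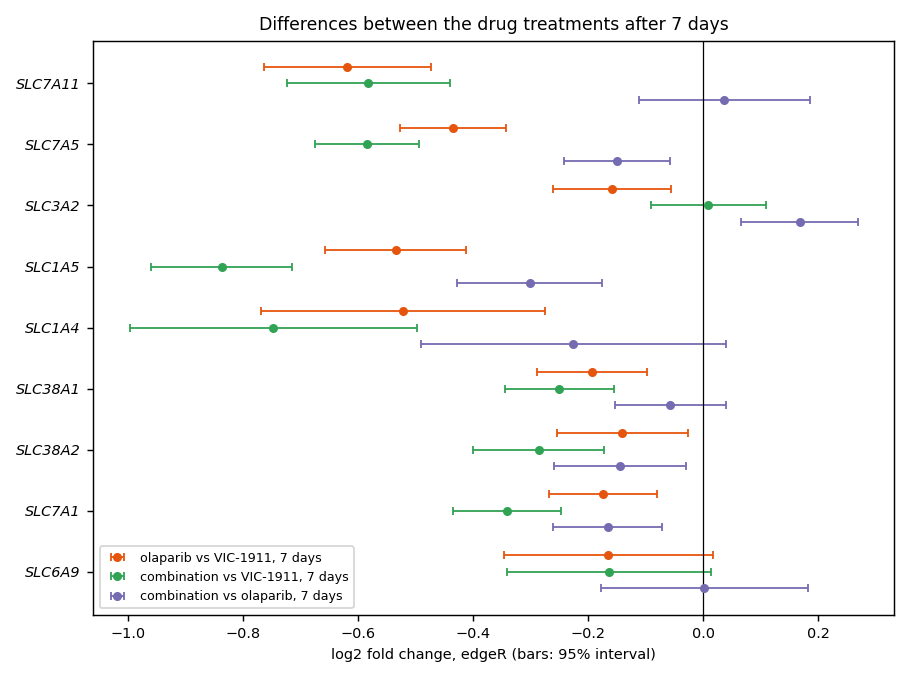
Log2 differences between the drug treatments of 7 days (horizontal axis) for the 9 tested genes (rows): olaparib less VIC-1911, the combination less VIC-1911 and the combination less olaparib; points are edgeR estimates and bars 95% intervals. The differences from VIC-1911 reach -0.84 for SLC1A5 in the combination, and those from olaparib lie between -0.30 and 0.17.

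Summed over the genes, transporter transcripts stood at 949 ± 28.3 FPKM in the vehicle of 7 days (SD, n = 3), 285 ± 1.504 under VIC-1911, 233 ± 2.23 under olaparib and 216 ± 3.03 under the combination. After 2 days the sums were 531 ± 26.8 FPKM in vehicle and 372 ± 20.3 under VIC-1911. The order of the genes changed with them. In the vehicle of 7 days SLC3A2, SLC7A5, SLC7A1, SLC1A5 and SLC38A2 led, at means of 189, 174, 149, 137 and 119 FPKM, followed by SLC7A11 at 72.5, SLC6A9 at 47.5, SLC38A1 at 44.4 and SLC1A4 at 15.2 FPKM. Only SLC6A9 and SLC38A1 overlapped there among neighbours. In the combination SLC38A2 led at 48.1 FPKM, and its libraries overlapped those of SLC3A2 at 44.6 FPKM. SLC7A1 and SLC7A5 followed at 38.8 and 35.1 FPKM, then SLC38A1 and SLC1A5, which overlapped, at 20.2 and 19.2 FPKM. SLC6A9 and SLC7A11 overlapped at 4.79 and 4.53 FPKM, and SLC1A4 stood at 1.06 FPKM. SLC38A2 made up 12.5% of the sum in vehicle and 21.2%, 23.2% and 22.3% under VIC-1911, olaparib and the combination, whereas SLC7A11 made up 7.64% in vehicle and 2.44%, 1.89% and 2.09% under the drugs.

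**Figure D5:**
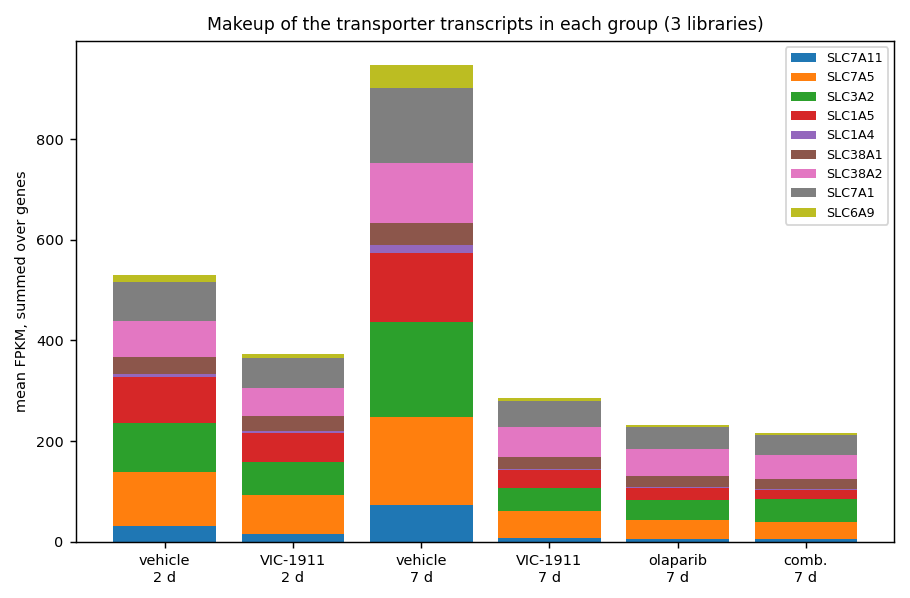
Mean FPKM of the 9 tested genes stacked by group (3 libraries each; vertical axis from 0, colours are genes). The stack falls from 949 FPKM in the vehicle of 7 days to 285, 233 and 216 FPKM under VIC-1911, olaparib and the combination, and the 2-day stacks stand at 531 and 372 FPKM.

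Other amino acid transporters at the plasma membrane and lysosome did not move as a block. Of 43 such genes, 18 were tested after 2 days and 21 after 7 days. After 2 days none was called (1.33% of all genes lower, 0.825% higher). Past the edgeR test 2 were lower and 1 higher (7.19% and 7.5% of all genes). After 7 days the calls were 1 lower and 4 higher under VIC-1911, 2 lower and 2 higher under olaparib, and 2 lower and 2 higher under the combination, where 3.43%, 3.53% and 4% of all genes were called lower and 3.46%, 3.63% and 4.55% higher. Past the test without a fold limit, 5, 8 and 9 of the 21 were lower after 7 days (25.7%, 25.9% and 28% of all genes). In the same order, 9, 8 and 6 were higher (26.7%, 28.1% and 28.6% of all genes). The median log2 fold changes of these transporters in the 4 comparisons were 0.06, 0.15, -0.02 and -0.02. SLC43A1, which carries large neutral amino acids, fell from 121 ± 1.23 FPKM in vehicle to 71.8 ± 3.36, 55.1 ± 2.88 and 42.4 ± 1.10 FPKM under VIC-1911, olaparib and the combination (SD, n = 3). Its log2 fold change in the combination was -1.51 ± 0.046 (SE; edgeR adjusted p = 8.84e-22). SLC38A10 fell by 0.73 on the log2 scale in the combination, short of the fold limit. SLC6A6, the taurine transporter, rose from 4.48 ± 0.545 FPKM to 10.1 ± 1.28, 12.2 ± 2.53 and 11.2 ± 1.04 FPKM, a log2 fold change of 1.34 ± 0.11 in the combination (adjusted p = 1.51e-11). The other calls, named after their values were seen, were SLC6A20, lower in all 3 treatments, SLC38A4, higher in all 3, and SLC1A2 and SLC1A3, higher under VIC-1911. These calls were less precise than that of SLC43A1. In the combination they were -3.79 ± 0.44 for SLC6A20 and 2.75 ± 0.64 for SLC38A4 (log2 fold change, SE). Under VIC-1911 they were 1.04 ± 0.35 for SLC1A2 and 1.37 ± 0.24 for SLC1A3.

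Among 37 enzymes that make or use the imported amino acids, of which 36 were tested after 2 days and 37 after 7 days, 5 were called lower after 2 days (1.33% of all genes). After 7 days 13, 10 and 10 were called lower under VIC-1911, olaparib and the combination (3.43%, 3.53% and 4% of all genes). None was called higher in any of the 4 comparisons, against 0.825%, 3.46%, 3.63% and 4.55% of all genes. Past the test without a fold limit, 22 were lower and 10 higher in the combination, against 28% and 28.6% of all genes. The median log2 fold changes of the enzymes in these 4 comparisons were -0.05, -0.25, -0.20 and -0.33. ASNS, which makes asparagine, fell from 183 ± 13.7 FPKM in the vehicle of 7 days to 26.5 ± 0.573, 21.4 ± 1.06 and 23.7 ± 0.754 FPKM under the 3 treatments (SD, n = 3). PSAT1, of serine synthesis, fell from 318 ± 15.6 to 68.7 ± 3.20, 60.5 ± 1.15 and 58.3 ± 1.34 FPKM. CHAC1, which breaks down glutathione, fell from 45.6 ± 1.07 to 2.47 ± 0.179, 2.05 ± 0.199 and 2.58 ± 0.370 FPKM. Their log2 fold changes in the combination were -2.95 ± 0.055, -2.45 ± 0.047 and -4.14 ± 0.088 (SE; edgeR adjusted p = 5.52e-27, 1.14e-26 and 1.37e-25).

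Of 36 regulators of amino acid sensing and response, all tested at both times, 2 were called lower and 1 higher after 2 days (1.33% and 0.825% of all genes). After 7 days 7, 7 and 6 were called lower under VIC-1911, olaparib and the combination (3.43%, 3.53% and 4% of all genes), and 0, 1 and 1 higher (3.46%, 3.63% and 4.55%). Past the test without a fold limit, 13, 12 and 15 were lower (25.7%, 25.9% and 28% of all genes) and 11, 14 and 16 higher (26.7%, 28.1% and 28.6%). The median log2 fold changes of the regulators in the 4 comparisons were 0.03, -0.01, 0.09 and 0.12. ATF4 itself fell from 394 ± 4.80 FPKM to 145 ± 2.79, 146 ± 4.18 and 166 ± 5.67 FPKM (SD, n = 3), with log2 fold changes of -1.49 ± 0.041, -1.45 ± 0.041 and -1.25 ± 0.040 (SE; edgeR adjusted p = 1.15e-22, 1.29e-22 and 3.45e-21). TRIB3, a pseudokinase that ATF4 induces, fell from 99.2 ± 1.97 to 17.6 ± 0.515, 13.1 ± 0.230 and 12.7 ± 0.554 FPKM. CEBPG, a C/EBP partner of ATF4, fell from 27.03 ± 0.307 to 10.4 ± 0.319, 9.10 ± 0.382 and 9.57 ± 0.470 FPKM. After 2 days of VIC-1911 the log2 fold changes were -0.48 ± 0.047 for ATF4, -0.93 ± 0.061 for TRIB3 and -0.44 ± 0.066 for CEBPG (adjusted p = 3.64e-10, 1.20e-14 and 7.22e-06), of which TRIB3 alone passed the fold limit.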

How the data were processed

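RNA-Seq of polyA RNA was analysed in 18 libraries of C4-2B cells, grouped by the titles of their sample records. Per the labels and methods, the authors mapped Trimmomatic-trimmed reads to GRCh38 by STAR (version 2.6.0 in the submitters' processing notes) and deposited raw counts per gene, 1 table a time point. The authors also deposited FPKM values (fragments scaled to transcript length and library size) computed with an in-house script. FPKM values are given as levels, and 32 of 26475 gene rows had none. The 2-day FPKM values rest on more reads than the 2-day counts. Strand use in counting is not given in the sources used here.

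Counts were fitted with edgeR 4.0.16 (R 4.3.3, TMM, quasi-likelihood test), 1 fit for the 6 libraries of 2 days (12241 genes), 1 for the 12 of 7 days (14409 genes) and 1 for VIC-1911 and vehicle at both times (13832 genes). Genes needed at least 10 counts in at least 3 libraries. P-values were adjusted by Benjamini-Hochberg over all genes of a comparison. A call needed an adjusted p under 0.05 and a fold of 1.5 (2 days) or 2 (7 days); the interaction and time terms had no fold limit. SE and 95% intervals come from the edgeR fit, and counting error alone does not set them. No 2 libraries of a group agreed within sampling noise. The fits were tested on simulated data first. Alternatives were upper-quartile or no scaling factors, no count filter, DESeq2 1.42.0, a replicate block, limma 3.58.1 on log2(FPKM + 0.1) or log2(FPKM + 1), a minimum mean of 1 FPKM, the compared groups alone, and leaving out each library.

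The 10 genes and the further lists were chosen with earlier results of these data known. From each further list up to 3 genes were named, those with the smallest adjusted p in the combination against vehicle at a mean of at least 1 FPKM in a 7-day group; likewise the 5 genes with the highest Pearson r with SLC7A11 over the 12 libraries of 7 days on log2(FPKM + 0.1). Older symbols in the tables were matched for 6 list genes through RefSeq. Gene positions and promoter windows are those of RefSeq on GRCh38.p14.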

Additional observations from a re-analysis of the deposited data

Results flagged for a closer look

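Results are given here because the effect of a drug differed between conditions by a test of that difference. In all 9 tested genes the effect of VIC-1911 in cells given olaparib differed from its effect in cells without olaparib (the interaction term, log2 scale, edgeR adjusted p at or below 2.44e-10). Over all genes, 21% had a positive and 22.9% a negative term past the test. The term was 3.47 for SLC7A11, 3.13 for SLC6A9, 2.87 for SLC1A4, 2.26 for SLC3A2, 1.71 for SLC1A5, 1.58 for SLC7A5, 1.44 for SLC7A1, 0.87 for SLC38A2 and 0.83 for SLC38A1. In these same genes the effect of VIC-1911 alone ran from -3.43 to -0.89, and its effect on top of olaparib from -0.30 to 0.17.

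In all 9 tested genes the effect of VIC-1911 also differed between 7 and 2 days (edgeR adjusted p at or below 7.22e-11). Over all genes, 14.2% had a negative and 14.6% a positive difference past the test. The 7-day effect less the 2-day effect was -2.39 for SLC7A11, -2.16 for SLC6A9, -2.02 for SLC1A4, -1.54 for SLC3A2, -1.41 for SLC1A5, -1.31 for SLC7A5, -1.22 for SLC7A1, -0.76 for SLC38A1 and -0.70 for SLC38A2. Groups of 3 libraries are too small for a check of single outlying libraries.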

How the results depend on the processing

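The counts of called genes against vehicle, and of genes past the interaction and time tests, stayed within 1.5 times the reported counts under every alternative run: 4 to 5 genes for VIC-1911 after 2 days, 7 to 8 after 7 days, 9 for olaparib, 9 for the combination, and 9 for both terms. The combination against olaparib was the comparison that moved, from 4 genes past the test to 0 with limma on log2(FPKM + 0.1), 0 with limma on log2(FPKM + 1), 3 with limma on genes that averaged 1 FPKM or more, and 1 to 4 when libraries were left out; the cause was not tested. Libraries with the same replicate number did not deviate together (r from -0.0029 to 0.0438 after 2 days and from -0.0356 to 0.111 after 7 days), and with a replicate block 5 genes passed in that comparison and 8, in place of 7, for olaparib against VIC-1911, while no call against vehicle changed. The block brought SLC38A2 past the test in both comparisons. Without a fold limit, 7 to 9 genes were lower after 2 days over all alternatives; SLC38A1 was lost in 8 of them, and SLC7A1 with limma on log2(FPKM + 1) (adjusted p = 0.0515). Differences near 0 changed sign. SLC6A9 in the combination against olaparib (0.0018) became -0.012 without a count filter, -0.00073 with DESeq2, -0.0071 with the block, -0.068 with limma on log2(FPKM + 0.1) with or without the FPKM minimum, -0.057 with limma on log2(FPKM + 1), -0.0049 with the compared groups alone, and -0.085 to 0.083 when libraries were left out, being below 0 without olaparib replicate 2, combination replicate 1 or combination replicate 3. SLC7A11 there ran from -0.039 (without combination replicate 2) to 0.11. SLC3A2 in the combination against VIC-1911 (0.0087) became -0.0056 without a count filter, -0.0353 with limma on log2(FPKM + 0.1) with or without the minimum, -0.0346 with limma on log2(FPKM + 1), and -0.024 to 0.043 when libraries were left out, being below 0 without VIC-1911 replicate 1 or combination replicate 1. SLC38A2 under VIC-1911 after 7 days also fell short of the fold limit with library size only (-0.99) and limma (-0.97 and -0.96), and SLC3A2 after 2 days passed it with upper-quartile factors and limma on log2(FPKM + 0.1) (-0.59 in both). Depth limits SLC1A4 most, at 31 counts in its shallowest library.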

Other observations

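Amino acid carriers of the mitochondrial inner membrane were not called in either direction. Of 13 such genes, 12 were tested after 2 days and 13 after 7 days. Over all genes, 1.33% were called lower and 0.825% higher after 2 days of VIC-1911. After 7 days 3.43%, 3.53% and 4% were called lower under VIC-1911, olaparib and the combination, and 3.46%, 3.63% and 4.55% higher. An absence of calls among so few genes lies near these shares. In the 7-day comparisons 7, 9 and 7 were higher past the edgeR test under VIC-1911, olaparib and the combination, and 1, 0 and 1 lower, against 26.7%, 28.1% and 28.6% of all genes higher and 25.7%, 25.9% and 28% lower, with median log2 fold changes of 0.19, 0.28 and 0.19. SFXN1, a serine carrier, stood at 21.9 ± 1.10 FPKM in the vehicle of 7 days and at 39.1 ± 0.448, 33.7 ± 1.59 and 29.6 ± 0.473 FPKM under the 3 treatments (SD, n = 3). SLC25A13, an aspartate and glutamate carrier, stood at 7.55 ± 0.863 FPKM in that vehicle and at 14.2 ± 1.22, 14.5 ± 0.234 and 12.8 ± 0.806 FPKM. SLC25A29, a carrier of basic amino acids, stood at 16.8 ± 0.419 FPKM in vehicle and at 15.1 ± 0.167, 20.6 ± 0.844 and 24.0 ± 1.33 FPKM, below vehicle under VIC-1911 and above it under olaparib and the combination. After 2 days the vehicle and VIC-1911 means were 41.3 and 42.6 FPKM for SFXN1. They were 12.8 and 14.9 FPKM for SLC25A13 and 6.23 and 6.71 FPKM for SLC25A29. The 2 days are set side by side without a test.

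Over the 12 libraries of 7 days, the genes whose levels were most like those of SLC7A11 among 12378 genes were TMED10, GARS, CLIC4, TRIB3 and TMCO3, with Pearson r of 0.999, 0.998, 0.998, 0.998 and 0.997 on log2(FPKM + 0.1). The 3 vehicle libraries lie apart from the 9 treated ones, so r mainly describes that separation, and it is given without a p. In the combination the log2 fold changes of these genes were -1.05 ± 0.044, -1.94 ± 0.044, -2.44 ± 0.061, -2.97 ± 0.049 and -1.87 ± 0.052 (SE; edgeR). Among the other tested transporters, r with SLC7A11 ran from 0.977 for SLC38A2 (rank 161) to 0.996 for SLC1A4 (rank 12).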
